A study of Mus musculus with 6 samples.

Results

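The ON bipolar mGluR6 cascade is described here through 10 genes, named for their role in the cascade and matched by symbol among the 55450 genes of the deposited table: Grm6, Trpm1, Gpr179, Nyx, Lrit3, Gnao1, Gng13, Rgs7, Rgs11 and Pcp2. The table holds RNA-seq of retina from C57BL/6 mice at 8 weeks of age, in 3 libraries labelled Myrf-kd, whose genotype is Myrf +/−, and 3 of the wild type (WT). Myrf encodes a membrane-bound transcription factor, and the labels do not say how the altered allele was made or which cells carry it. The labels do not say that the libraries come from separate animals, so every p-value rests on the spread among these 6 libraries alone, which may be partly technical. RNA of whole retina does not tell fewer cells of a type from less RNA per cell.

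ON bipolar cells receive glutamate from photoreceptors and are depolarised when light lowers its release. Their dendrites carry mGluR6, a metabotropic glutamate receptor that in darkness activates the G protein Go and thereby keeps the cation channel TRPM1 closed. In light the Go signal is ended by RGS proteins, TRPM1 opens, and the cell generates the b-wave of the electroretinogram. Loss of mGluR6, TRPM1, GPR179, nyctalopin or LRIT3 is known as a cause of complete congenital stationary night blindness.

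All 10 genes had a mean of at least 1 FPKM (fragments per kilobase of gene, scaled to library size) and entered the test. Between 1204 and 27525 counted units stood behind each value, where about 4 units correspond to 1 fragment. Levels are given in FPKM, and in CPM (units scaled to the normalized library total, with no length) where libraries are compared. Of the 10 genes 0 passed edgeR's quasi-likelihood test of Myrf-kd against WT (Benjamini-Hochberg adjusted p under 0.05), against 0.0439% of the 13674 genes tested (0.0293% higher and 0.0146% lower in Myrf-kd). At an unadjusted p under 0.05 there was 1 of the 10, Gnao1, against 7.48% of all genes. DESeq2 and limma also called 0 of the 10. The groups overlapped in all 10 genes, whereas they did not overlap in 14.6% of all genes. The estimate was higher in Myrf-kd for 5 genes and lower for 5, where 51.0% of all genes were higher, with a median log2 fold change of 0.011 beside 0.004 over all genes. The median size of the log2 fold change, without its sign, was 0.071 for the cascade and 0.109 over all genes.

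**Figure D1:**
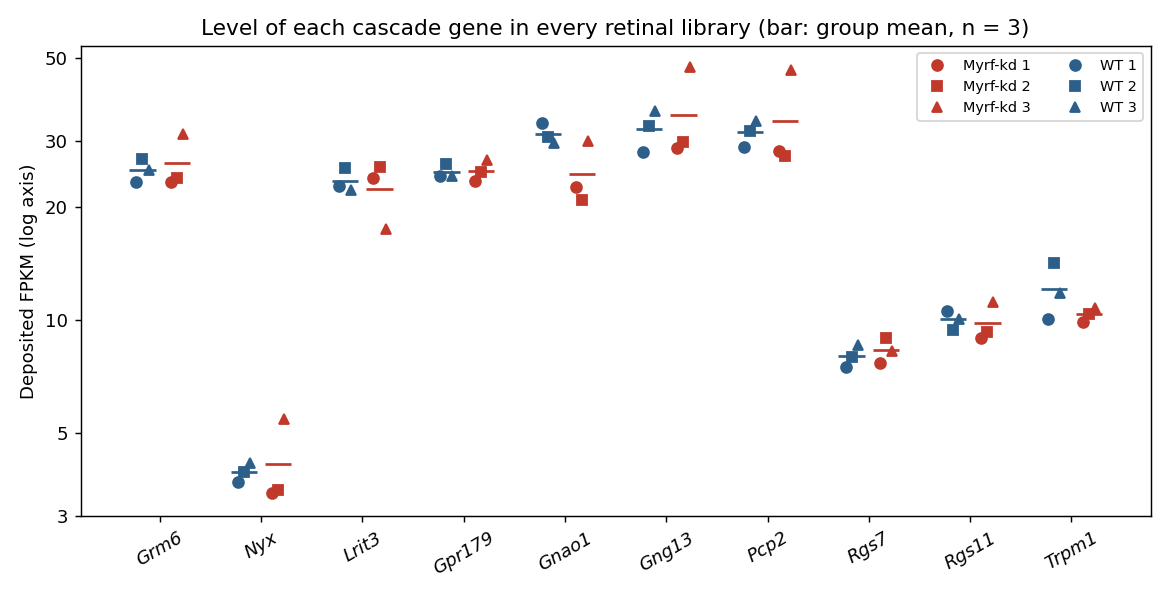
Deposited FPKM (log axis) of the 10 cascade genes, with 1 point per library, WT in blue and Myrf-kd in red, and a bar at the mean of each group of 3. The Myrf-kd 3 triangle stands above the other libraries for Nyx, Gng13 and Pcp2 and below them for Lrit3, and the groups overlap in every gene.

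Sequence upstream of the RefSeq start was available in the reference for 9 of the 10 genes, in 14 windows of 250 bases. The windows of the receptor, the channel, the G protein gamma subunit and LRIT3 are shown as examples of the receptor, the channel and proteins that act with them. Each is written 5′ to 3′ on the gene's strand and ends at the base before the start. Capitals mark TAATCC or its reverse complement GGATTA, the core bound by the homeodomain factors CRX and OTX2, and the E-box CATCTG or its reverse complement CAGATG.
Grm6: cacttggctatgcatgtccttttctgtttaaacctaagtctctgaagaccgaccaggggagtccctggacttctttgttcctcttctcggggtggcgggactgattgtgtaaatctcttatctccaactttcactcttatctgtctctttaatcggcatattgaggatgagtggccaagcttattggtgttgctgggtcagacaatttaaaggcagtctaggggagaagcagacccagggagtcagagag
Trpm1: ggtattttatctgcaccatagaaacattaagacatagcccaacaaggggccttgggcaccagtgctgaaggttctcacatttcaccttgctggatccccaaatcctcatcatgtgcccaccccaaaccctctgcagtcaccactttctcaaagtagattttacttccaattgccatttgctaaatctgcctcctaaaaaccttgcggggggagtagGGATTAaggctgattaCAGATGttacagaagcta
Gng13: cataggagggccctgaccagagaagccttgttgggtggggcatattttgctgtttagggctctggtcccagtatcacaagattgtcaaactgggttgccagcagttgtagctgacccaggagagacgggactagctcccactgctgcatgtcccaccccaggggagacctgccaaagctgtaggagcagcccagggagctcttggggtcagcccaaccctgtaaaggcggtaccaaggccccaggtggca
Lrit3: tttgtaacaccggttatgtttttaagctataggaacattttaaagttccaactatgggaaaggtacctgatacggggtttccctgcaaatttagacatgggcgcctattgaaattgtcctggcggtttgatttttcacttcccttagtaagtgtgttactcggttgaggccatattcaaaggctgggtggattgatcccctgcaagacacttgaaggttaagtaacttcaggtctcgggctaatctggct
On GRCm38.p6 these are chr11:50850435-50850684 and chr7:64153585-64153834 on the plus strand for Grm6 and Trpm1, chr17:25716922-25717171 on the plus strand for Gng13, and chr3:129804137-129804386 on the minus strand for Lrit3. Trpm1 and Gng13 are each annotated from a later start as well, and the window shown is that of the first. The window of the later Trpm1 start, chr7:64185209-64185458 on the plus strand, held 0 matches to any motif searched. Of the 9 genes, 1 held TAATCC on either strand, Trpm1 at −34 to −29 of its first start, while 6.25% of all 32851 RefSeq windows of this length hold it. CATCTG on either strand was in the windows of 2 genes, Trpm1 at −18 to −13 of its first start and Pcp2, and in 14.4% of all windows. No 2 different motifs overlapped in these windows. The palindrome TAATTA was in a window of 1 gene, Pcp2, and in 4.84% of all windows, and the GC box GGGCGG in windows of 2 genes, Gpr179 and the later start of Gng13, and in 32.7% of all windows. Genes were counted over all of their windows, 14 for the 9 genes, while the shares of RefSeq are per window, so the counts and shares are not directly comparable. A match describes the letters only, and binding was not measured.

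Grm6 (ENSMUSG00000000617, chromosome 11, 50850685 to 50866208, plus strand, GRCm38), which encodes the receptor mGluR6, was at 23.4, 27.0 and 25.1 FPKM in WT 1, 2 and 3. In Myrf-kd 1, 2 and 3 it was at 23.4, 23.9 and 31.4 FPKM. Myrf-kd 3 was the highest of the 6 libraries, and the other Myrf-kd libraries lay among or near the WT values. Fitted over WT, Grm6 reached 103% (95% interval 83.2% to 127%), a log2 fold change of 0.04 ± 0.13 SE (adjusted p = 0.948 by edgeR).

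Trpm1 (ENSMUSG00000030523, chromosome 7, 64153835 to 64269775, plus strand) encodes the cation channel that the cascade controls. It was at 10.1, 14.2 and 11.8 FPKM in WT 1, 2 and 3 and at 9.87, 10.4 and 10.8 FPKM in Myrf-kd 1, 2 and 3. WT 2 stood above the other libraries, and WT 1 lay inside the Myrf-kd range. The fitted level was 84.8% of WT (95% interval 68.4% to 105%), and it did not pass the test (log2 fold change −0.24 ± 0.13 SE, adjusted p = 0.701 by edgeR). Without WT 2 the log2 fold change was −0.09. The receptor was highest in Myrf-kd 3 and the channel in WT 2. The ratio of Grm6 to Trpm1 FPKM was 2.52 ± 0.333 in Myrf-kd and 2.11 ± 0.211 in WT (SD, n = 3 each), with overlapping groups.

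Nyctalopin, LRIT3 and GPR179 are the proteins that hold or place the receptor, the channel and the RGS proteins at the dendritic tip. Nyx (ENSMUSG00000051228, chromosome X, 13466110 to 13489313, plus strand), for the leucine-rich repeat protein nyctalopin, was at 3.71, 3.95 and 4.17 FPKM in WT 1, 2 and 3 and at 3.46, 3.52 and 5.44 FPKM in Myrf-kd 1, 2 and 3. The WT values lay between those of Myrf-kd 2 and Myrf-kd 3. Lrit3 (ENSMUSG00000093865, chromosome 3, 129787881 to 129804030, minus strand), for another leucine-rich repeat protein needed to localise nyctalopin and TRPM1, was at 22.8, 25.5 and 22.2 FPKM in WT and at 23.9, 25.7 and 17.5 FPKM in Myrf-kd 1, 2 and 3. Here Myrf-kd 3 was the lowest library, the reverse of its place for Nyx. The ratio of Lrit3 to Nyx FPKM was 6.91 and 7.30 in Myrf-kd 1 and 2, 3.23 in Myrf-kd 3, and 6.16, 6.45 and 5.33 in WT 1, 2 and 3.

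Gpr179 (ENSMUSG00000070337, chromosome 11, 97332109 to 97352077, minus strand) encodes the orphan receptor that anchors the RGS complexes next to mGluR6, and its level varied least. It was at 24.2, 26.1 and 24.3 FPKM in WT and at 23.5, 24.9 and 26.7 FPKM in Myrf-kd 1, 2 and 3, and its highest library was 1.13 times its lowest in CPM. The fitted level was 99.4% of WT with the narrowest interval of the 10 genes, 88.1% to 112% (adjusted p = 0.980 by edgeR). For Nyx the fitted level was 104% of WT (75.9% to 142%, adjusted p = 0.954 by edgeR) and for Lrit3 93.9% (73.9% to 119%, adjusted p = 0.881 by edgeR).

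Gnao1 (ENSMUSG00000031748, chromosome 8, 93809966 to 93969210, plus strand) encodes the Go alpha subunit, which many retinal neurons besides ON bipolar cells use, and it had the largest difference of the 10 genes. It was at 33.5, 30.9 and 29.7 FPKM in WT 1, 2 and 3. In Myrf-kd 1 and 2 it was at 22.6 and 20.9 FPKM, below every WT library, and in Myrf-kd 3 at 30 FPKM, inside the WT range. Fitted over WT, Gnao1 reached 77.4% (95% interval 61.6% to 97.2%), a log2 fold change of −0.37 ± 0.14 SE. It was not called over all genes (unadjusted p = 0.0328, adjusted p = 0.666 by edgeR). An exact two-sided permutation test of its log2 CPM gave p = 0.2, where 3 against 3 cannot go below 0.1. Without Myrf-kd 3 the log2 fold change was −0.54 (adjusted p = 0.203 by edgeR), and 10.4% of all genes tested had a log2 fold change at least as far from 0 as that of Gnao1 in all 6 libraries.

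Gng13 encodes a subunit of the same G protein, and Pcp2 a protein that binds it. Gng13 (ENSMUSG00000025739, chromosome 17, 25717171 to 25719406, plus strand), the gamma subunit of the ON bipolar G protein, was at 28.1, 32.9 and 36.2 FPKM in WT 1, 2 and 3 and at 28.8, 29.8 and 47.3 FPKM in Myrf-kd 1, 2 and 3. Pcp2 (ENSMUSG00000004630, chromosome 8, 3623371 to 3625545, minus strand), a Go-binding regulator of rod bipolar and Purkinje cells, was at 29.0, 32 and 34.0 FPKM in WT and at 28.3, 27.5 and 46.5 FPKM in Myrf-kd. In both genes Myrf-kd 3 stood above the other 5 libraries. Among those 5, the Myrf-kd values lay inside the WT range for Gng13 and below it for Pcp2. The fitted levels were 107% of WT for Gng13 (75.4% to 153%, adjusted p = 0.913 by edgeR) and 106% for Pcp2 (75.5% to 150%, adjusted p = 0.922 by edgeR). Relative to Gnao1 in the same library, Gng13 was at 1.27, 1.42 and 1.58 times its FPKM in Myrf-kd 1, 2 and 3 and at 0.840, 1.07 and 1.22 times in WT 1, 2 and 3. For Pcp2 these ratios were 1.25, 1.32 and 1.55 in Myrf-kd and 0.866, 1.04 and 1.15 in WT. Neither ratio overlapped between the groups, both share Gnao1 as the divisor, and the ratios were chosen after the values of the genes were seen. The other ratios taken, Grm6 to Trpm1, Rgs11 to Rgs7, Lrit3 to Nyx and Gpr179 to Rgs7, overlapped between the groups. How often ratios of other genes do not overlap was not computed.

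RGS7 and RGS11 end the Go signal by speeding GTP hydrolysis. Rgs7 (ENSMUSG00000026527, chromosome 1, 175059087 to 175492500, minus strand) was at 7.51, 7.99 and 8.58 FPKM in WT 1, 2 and 3 and at 7.68, 8.99 and 8.27 FPKM in Myrf-kd 1, 2 and 3. Rgs11 (ENSMUSG00000024186, chromosome 17, 26202951 to 26211319, plus strand) was at 10.6, 9.41 and 10.1 FPKM in WT and at 8.97, 9.30 and 11.2 FPKM in Myrf-kd. The groups overlapped in both genes, and for Rgs11 the WT libraries lay between Myrf-kd 2 and Myrf-kd 3. The fitted levels were 102% of WT for Rgs7 (88.7% to 118%, adjusted p = 0.935 by edgeR) and 96.7% for Rgs11 (81.4% to 115%, adjusted p = 0.916 by edgeR). The ratio of Rgs11 to Rgs7 FPKM was 1.19 ± 0.163 in Myrf-kd and 1.26 ± 0.136 in WT (SD, n = 3 each).

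**Figure D2:**
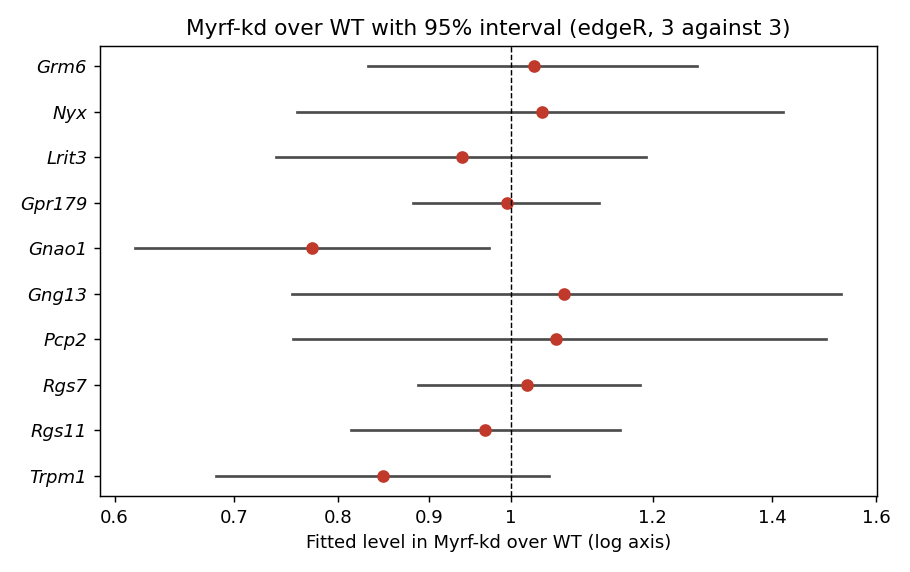
Fitted level in Myrf-kd over WT (log axis) for each cascade gene by edgeR, with points at the estimate and lines at the 95% interval, not adjusted for the number of genes. The interval of Gnao1, from 0.616 to 0.972, lies below 1, and those of the other 9 genes cover 1.

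The widths of these intervals differed with the spread between libraries. Within Myrf-kd the coefficient of variation in CPM was 31.6% for Pcp2, 29.8% for Gng13 and 27.4% for Nyx, beside a median of 9.92% over all genes. In WT it was 8.88%, 13.3% and 6.79% for the same genes, beside 8.09% over all genes. The spread was larger in Myrf-kd than in WT for 8 of the 10 cascade genes and for 57.5% of all genes.

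Myrf-kd 3 set most of that spread. It held the highest CPM of the 6 libraries for 5 of the 10 genes (Grm6, Nyx, Gng13, Rgs11 and Pcp2) and the lowest for 1 (Lrit3), beside 25.7% and 25.2% of all genes. Pcp2 deviated from its own mean by 0.51 in Myrf-kd 3 on the log2(CPM + 1) scale, Gng13 by 0.49, Nyx by 0.43 and Grm6 by 0.29, while Lrit3 deviated by −0.38. Of the marker lists for other cell types, the lens list summed to 63.1 CPM in Myrf-kd 3, to 0.592 and 0.191 CPM in Myrf-kd 1 and 2 and to 13.9 to 24.0 CPM in WT. All 7 lens genes were detected in Myrf-kd 3, whereas Crygd, Crygs, Cryba1, Crybb2 and Mip were at 0 units in Myrf-kd 1 and 2. By Xist and Y-linked genes Myrf-kd 3 and WT 3 were the female libraries. The part of lens RNA in the levels of the cascade was not tested. In the 4 male libraries, 2 of each group, the median log2 fold change of the 10 genes was −0.129 and 0 passed. Without Myrf-kd 3 the median log2 fold change of the 10 genes was −0.163, 8 of the 10 had lower estimates, and 0 passed. In that setting the share of all genes with lower estimates was not computed. The medians there were −0.12 for rod and ON bipolar markers, −0.06 for OFF bipolar markers and −0.11 for pan-bipolar markers. They were −0.02 for other genes of the cascade and 0.1 for paralogs (lists described below).

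**Figure D3:**
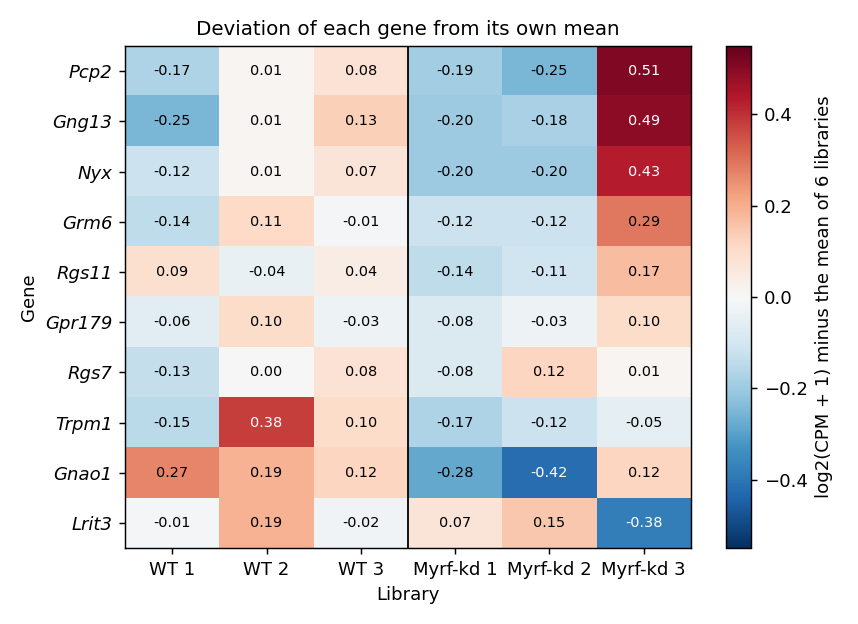
Deviation of each cascade gene (rows) from its own mean over the 6 libraries (columns), in log2(CPM + 1), with red for higher and blue for lower. Myrf-kd 3 ranges from 0.51 for Pcp2 to −0.38 for Lrit3, and Gnao1 is at −0.28 and −0.42 in Myrf-kd 1 and 2.

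Over the 6 libraries, Pearson's r of log2(CPM + 1) was 0.98 between Gng13 and Nyx and between Gng13 and Pcp2, and 0.94 between Grm6 and each of Nyx and Pcp2. Without Myrf-kd 3 these were 0.91, 0.93, 0.77 and 0.80. Grm6 and Gpr179 had an r of 0.91, and 0.92 without Myrf-kd 3. Lrit3 ran against Pcp2 and Nyx (r = −0.85 for both), which rested on Myrf-kd 3, since without it r was −0.19 and −0.21. Grm6 and Trpm1 had an r of 0.45 over all 6 libraries and of 1.0, as rounded, over the 5 without Myrf-kd 3. These are descriptions over 6 libraries, and all values of a library share its depth.

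Ranked by r to Grm6 among 13673 other genes, Pcp2 was at rank 116, Nyx at 133, Gng13 at 146 and Gpr179 at 273. Rgs11 was at rank 2097, Trpm1 at 3264, Gnao1 at 3445, Rgs7 at 5225 and Lrit3 at 11848. Outside the cascade the most similar genes were Ndufa13 and Ndufa12 (r = 0.996 and 0.994), which encode subunits of respiratory complex I, Gm6204 (0.993), the rod transducin gamma gene Gngt1 (0.992) and the complexin gene Cplx3 (0.992). Cplx3, a regulator of vesicle release at ribbon synapses, had 327, 331 and 399 CPM in Myrf-kd 1, 2 and 3, against 326, 358 and 348 CPM in WT 1, 2 and 3, highest in Myrf-kd 3 as Grm6 was. To Trpm1 the most similar were Sin3a (0.995), Gm5558 (0.992), the cytoglobin gene Cygb (0.988), the chromatin remodelling gene Smarcc2 (0.986) and the ribosomal gene Rplp2 (0.981). With 6 libraries, an r over 0.9 to Grm6 was held by 302 of the 13673 other genes, Pcp2, Nyx, Gng13 and Gpr179 among them. To Trpm1 it was held by 106, with no cascade gene among them. By r to Trpm1, Gpr179 had the best rank of the cascade genes, 1090 (r = 0.68), and Rgs11 the lowest, 6652 (r = 0.02).

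The levels of the 10 genes could be ordered only per length, and the order depended on which length was used. The deposited FPKM divide by the union of all annotated exons of a gene. The length implied by units and FPKM was 14748 bases for Trpm1 in these libraries, its exon union in GENCODE M21 was 14746 bases, and its longest annotated transcript 5711 bases. For Gnao1 the implied length was 11050 bases and the longest transcript 5526 bases, while for Gpr179, at 9538 and 9219 bases, they were close. In deposited FPKM, Gng13 (mean over 6 libraries 33.9), Pcp2 (32.9), Gnao1 (27.9), Grm6 (25.7), Gpr179 (24.9) and Lrit3 (22.9) came first, each with a range that overlapped that of the next. Trpm1 (11.2), Rgs11 (9.94) and Rgs7 (8.17) followed below Lrit3 without overlap, overlapping each other in turn, and Nyx (4.04) came last without overlap.

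Per kilobase of the longest transcript, Gnao1 came first at 55.8 and Trpm1 moved from the 7th to the 5th place at 29.0, beside 32.1 for Grm6 and 25.8 for Gpr179. The FPKM ratio of Grm6 to Trpm1 therefore does not give the ratio of their transcripts. Nyx was last under both lengths, at 4.04. Which transcripts were present was not measured, and the length used for a gene was the same in all libraries, so it has no part in the comparison of the groups.

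**Figure D4:**
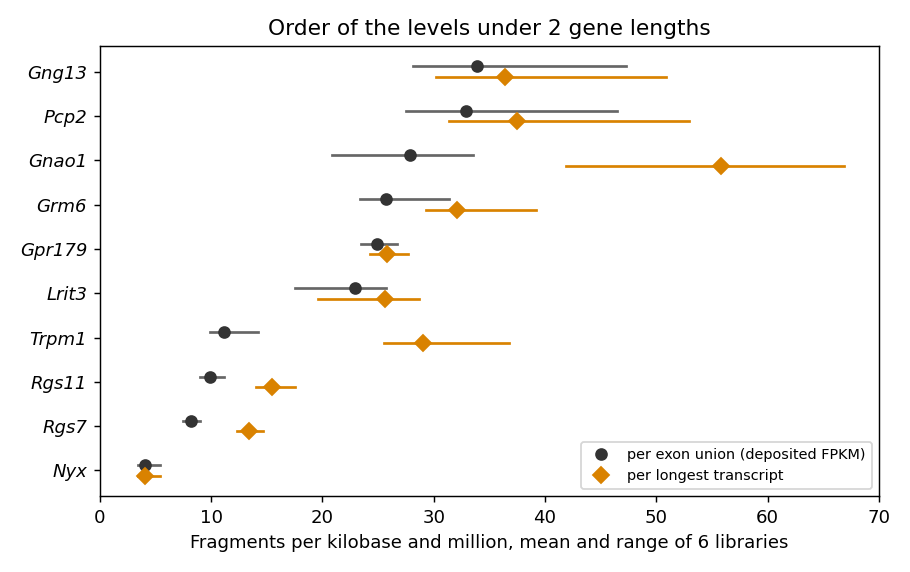
Mean and range over the 6 libraries for each cascade gene, per kilobase of the exon union as deposited (dark circles) and per kilobase of the longest annotated transcript (orange diamonds). Gnao1 and Trpm1 move most, from 27.9 to 55.8 and from 11.2 to 29.0, and Nyx stays last.

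Some of the genes overlap others in the annotation, and the sources used here do not give whether counting used the strand. The antisense gene Gm12660 lies across 1251 bases of Grm6 and had 2.48, 3.05 and 4.05 FPKM in Myrf-kd 1, 2 and 3 and at 2.41, 3.04 and 3.23 FPKM in WT 1, 2 and 3, highest in Myrf-kd 3 as Grm6 was. Pet100, which encodes an assembly factor of cytochrome oxidase, covers all 2175 bases of Pcp2 on the other strand and was listed between 3.33 and 4.27 FPKM. Chtf18 overlaps 481 bases of Gng13 on the other strand and had 1.6, 1.54 and 3.34 FPKM in the Myrf-kd libraries and at 2.82, 2.32 and 3.24 FPKM in WT. The values of these pairs cannot be fully told apart.

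Of 17 other genes of the cascade (G protein subunits, RGS anchors, chaperones and regulators), all 17 were tested, 8 had higher and 9 lower estimates, and 0 passed in either direction, with a median log2 fold change of −0.02. At an unadjusted p under 0.05 there were 2 of the 17, beside 7.48% of all genes. Rgs7bp, an anchor of RGS7, had 43.4, 49.9 and 48.8 CPM in Myrf-kd 1, 2 and 3, against 40.9, 41.1 and 41.3 CPM in WT 1, 2 and 3. Ric8b, a chaperone of G alpha subunits, had 244, 201 and 242 CPM in the Myrf-kd libraries and at 248, 306 and 275 CPM in WT. The groups did not overlap in CPM in 4 of the 17, Gnb3, Lrit1, Rgs7bp and Ric8b, beside 14.6% of all genes. Rgs7bp and Ric8b did not pass over all genes (adjusted p = 0.666 for both by edgeR). The obligate partners of the RGS proteins and of GNG13, which were picked by role and not by the naming rule, did not pass either. Gnb5 was at 333 ± 31.7 FPKM in the Myrf-kd libraries against 349 ± 42.1 in the WT libraries, and Gnb3 at 99.3 ± 1.22 against 101 ± 2.99 FPKM (SD, n = 3 each).

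Of 17 paralogs of the cascade genes 12 were tested, 8 with higher and 4 with lower estimates and 0 called, with a median log2 fold change of 0.04. Lrit1 and Lrit2, relatives of Lrit3, had log2 fold changes of 0.17 ± 0.08 and 0.21 ± 0.10 SE (adjusted p = 0.697 and 0.695 by edgeR). Lrit1 had 363, 401 and 446 CPM in Myrf-kd 1, 2 and 3, each above the 358 to 362 CPM of WT, while in FPKM the groups overlapped. It was the 1 of the 12 tested paralogs whose groups did not overlap in CPM, beside 14.6% of all genes. Lrit1, Lrit2 and Gpr158 are counted both here and among the 17 other cascade genes. Among the group III receptors related to Grm6, of which Grm7 and Grm8 were picked by role and not by the naming rule, Grm4 was at 1.02 ± 0.170 FPKM in the Myrf-kd libraries against 1.27 ± 0.149 in the WT libraries, Grm7 at 3.58 ± 0.134 and 3.28 ± 0.391, and Grm8 at 2.84 ± 0.399 and 3.03 ± 0.293 FPKM (SD, n = 3 each), below every value of Grm6.

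The 12 partners on the photoreceptor side of the synapse gave 6 higher and 6 lower estimates, 0 called and a median of 0.01. Egflam, which encodes pikachurin, a cleft protein that binds dystroglycan and GPR179, had 318, 311 and 273 CPM in Myrf-kd 1, 2 and 3, against 327, 341 and 321 CPM in WT 1, 2 and 3. Dmd, which encodes dystrophin, had a log2 fold change of 0.30 ± 0.13 SE. The active zone gene Bsn had 189, 226 and 169 CPM in the Myrf-kd libraries and at 90.1, 191 and 78.6 CPM in WT. The groups did not overlap in CPM for 2 of the 12 partners, Egflam and Dmd, beside 14.6% of all genes (in FPKM they overlapped for Dmd). For Bsn, WT 2 lay inside the Myrf-kd range. None of these 3 passed (adjusted p = 0.703 for Egflam, 0.675 for Dmd and 0.688 for Bsn by edgeR).

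Markers of the bipolar cells were compared in lists that hold none of the 10 genes, though Prkca is counted both among the rod and ON bipolar markers and among the 17 other cascade genes. Of 10 rod and ON bipolar markers 4 had higher and 6 lower estimates (median −0.07), of 9 OFF bipolar markers 5 and 4 (median 0.01), and of 6 pan-bipolar markers 3 and 3 (median under 0.005 from 0 in size), with 0 called in each list. The rod and ON bipolar list summed to 942, 963 and 1080 CPM in Myrf-kd 1, 2 and 3 and to 970, 1050 and 1040 CPM in WT 1, 2 and 3. The OFF bipolar list summed to 270, 312 and 324 CPM in Myrf-kd and to 280, 342 and 310 CPM in WT. In all 3 lists the groups overlapped in their sums, and every gene of the ON and OFF lists was tested. Of the lists for other cells, 3 had sums that did not overlap between the groups, where 14.6% of all genes taken singly did not overlap. The sums overlapped for cones, amacrine cells, horizontal cells, ganglion cells, Mueller glia, retinal pigment epithelium, lens, microglia and blood. The cornea and surface epithelium list summed to 1.4 to 6.28 CPM in the Myrf-kd libraries against 14.0 to 18.9 in the WT libraries, the rod list to 32900 to 36000 against 37100 to 54900, and the myelin list to 71.5 to 80.5 against 81.8 to 92.3. No gene of these 3 lists was called, and the part of these cells in the values of the cascade, Gnao1 included, was not tested.

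Of the single bipolar markers named by the rule, some had Myrf-kd 3 as the highest library, as 5 cascade genes did. Cabp5, a calcium-binding protein of rod bipolar cells, had 95.7, 95.6 and 165 CPM in Myrf-kd 1, 2 and 3, against 99.3, 99.0 and 105 CPM in WT. Trnp1 had 126, 120 and 175 CPM in the Myrf-kd libraries and at 132, 135 and 145 CPM in WT. Prkca, the kinase that marks rod bipolar cells, had its lowest library there, at 505 CPM beside 532 and 557 in Myrf-kd 1 and 2 and 553 to 573 in WT. Other markers named by the rule did not pass either. Tpbg (log2 fold change 0.41 ± 0.19 SE), Bhlhe22 (0.42 ± 0.22), Lhx3 (−0.18 ± 0.14), Syt2 (−0.43 ± 0.40), and Neurod4 (0.13 ± 0.10) had adjusted p-values from 0.688 to 0.788 by edgeR.

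**Figure D5:**
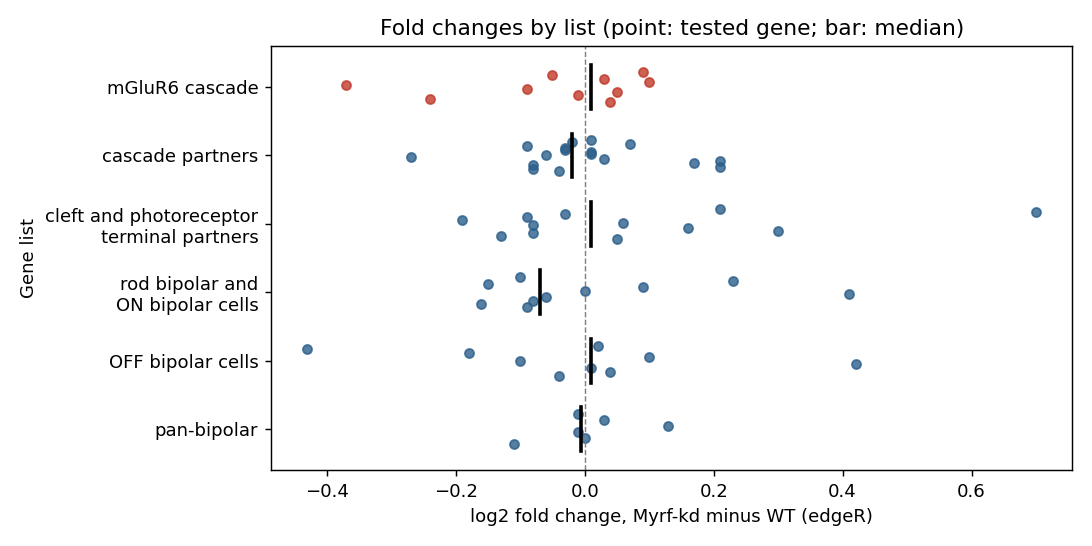
Log2 fold change, Myrf-kd minus WT, of each tested gene (points) in the cascade (red) and in lists of partners and bipolar cell markers (blue), with a black bar at each list's median. The medians lie between −0.07 and 0.01, and Gnao1, at −0.37, is the lowest cascade gene.

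The targeted gene itself, Myrf, had 0.279, 0.382 and 0.351 FPKM in Myrf-kd 1, 2 and 3 and at 0.359, 0.397 and 0.463 FPKM in WT 1, 2 and 3. The groups overlapped, and Myrf was fitted at 81.9% of WT (59.6% to 113%, adjusted p = 0.732 by edgeR). Reads of a whole gene can come from an altered allele, so this does not check the labels.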

How the data were processed

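The members were matched by symbol, and the members, lists and tests were chosen with earlier results of these data known. The authors deposited FPKM values and estimated counts for 55450 genes and 6 libraries. Per the submitters' processing notes, HISAT2 2.0, StringTie 1.3.0, Bowtie 0.12.2 and GRCm38 were used, with no role or order given. Per the file headers there is 1 FPKM and 1 count column per library. The FPKM divide counts by the exon union of a gene, which was found from the values. The counts the authors deposited were whole and were read as estimated counts, with library totals from 50695091 (WT 2) to 70298511 (WT 3) units. About 4 units were taken to stand for 1 fragment, since in each library 4 was the most frequent of the low values looked at.

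All genes averaging 1 FPKM or more were tested with edgeR 4.0.16 (quasi-likelihood, TMM factors, two-sided, Benjamini-Hochberg over 13674 genes, Myrf added). The residual degrees of freedom were 4, and the biological coefficient of variation was 20.3%. The test was also run on simulated counts, with the same dispersion for every gene and independent libraries. Those settings are simpler than these data, so that run does not show how the test performs here. The SE is the log2 fold change over the root of F, and intervals cover 95%. The text names the members, Myrf, up to 3 genes by smallest p from each list of partners, paralogs and bipolar markers, and the 5 genes most like Grm6 and Trpm1. Gnb3, Gnb5, Grm7, Grm8 and the lens genes at 0 were named outside this rule, after their values were seen. The rule also covers the lists of other cell types, which are given as sums, and 1 bipolar marker that the rule names is not reported here. limma 3.58.1 and DESeq2 1.42.0 served as alternatives. Windows upstream of genes are from RefSeq, GRCm38.p6.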

Additional observations from a re-analysis of the deposited data

How the results depend on the processing

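Over 17 alternatives 0 of the 10 cascade genes passed, and the signs of Trpm1 and Gnao1 held in all of them, with log2 fold changes from −0.36 to −0.09 and from −0.58 to −0.26. Nyx lies below the filter at a mean FPKM of 5 and has 16 alternatives. The number of genes called, 6, was 2 with a mean FPKM of at least 5, 53 with DESeq2, 22 in the male libraries only, a setting chosen after seeing the data, and 9 to 16 when 1 library was left out. With 1 library left out, the median log2 fold change of the cascade, 0.011, lay between −0.163 (without Myrf-kd 3) and 0.056, and it was −0.129 in the male libraries only. Without Myrf-kd 3 the log2 fold change of Cabp5 went from 0.23 to −0.08. Those of Gng13 and Pcp2 went from 0.10 and 0.09 to −0.17 and −0.20. Estimates near 0 and that of Cabp5 changed sign. On leaving out 1 library they ranged from −0.11 to 0.11 for Grm6, −0.06 to 0.04 for Gpr179, −0.20 to 0.16 for Nyx, −0.19 to 0.06 for Lrit3, −0.17 to 0.23 for Gng13, −0.02 to 0.08 for Rgs7, −0.16 to 0.01 for Rgs11, −0.20 to 0.23 for Pcp2, −0.08 to 0.37 for Cabp5 and −0.16 to 0.13 for Trnp1. In the male libraries only they were −0.11 for Grm6, −0.15 for Nyx and Pcp2, 0.02 for Lrit3, −0.08 for Gng13, −0.05 for Cabp5 and −0.12 for Trnp1. Gpr179 was at 0.000177 with upper-quartile factors, 0.00492 with a mean FPKM of at least 5 and 0.01 with limma on log2(FPKM + 1) and on log2(FPKM + 0.1). The cause of these moves was not tested. Under a replicate block 0 genes and 0 cascade genes passed. The numbers share no stated animal, and deviations of same-numbered libraries had r from −0.048 to 0.095, so the block is not a pairing. Of 300 values of 18 other named genes, 4 changed sign and 0 crossed the threshold. Dividing the counts by 4, other scalings and no filter changed no cascade call. The intervals of Gng13 and Pcp2 reach 153% and 150% of WT, so differences of that size are not excluded.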

Other observations

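Among 4491 genes averaging 10 FPKM or more, 99 had a gap of at least 1 on the log2(CPM + 1) scale between neighbouring libraries in their ordered values. In 26 of them the libraries fell on 2 levels, with at least 2 libraries on each side and each side within 0.5. The high libraries were those of 1 genotype in 1 of the 26, Synpr, and mixed the genotypes or held only part of one in the others. The sets of high libraries differed between genes. Among the 26, Rac1 and Mapt were high in Myrf-kd 1 and 3 and WT 1 and 3, and Eif4e in Myrf-kd 2 and all WT libraries. Of the 7 cascade genes at that level 0 had such a gap. The search and the genes named were chosen after values were seen, and the cause of the gaps was not tested.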
